A study of Mus musculus with 4 samples.

Results

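BIO, a bromoindirubin oxime that inhibits the kinase GSK3, was compared with its solvent DMSO in mouse ES cells of the line B6R(5), derived from C57BL/6. The comparison rests on 1 array labelled GSK 48 hours and 1 array labelled Control 48 hours. Of 25030 genes with a deposited value, 16469 had a Cy3 signal flagged as well above background on both arrays, and these genes are called measured here. The feeder-free cultures on gelatin received 2 μM BIO, or solvent alone, 24 hr after plating and were treated for 48 hr, each with 0.2% DMSO. ES cell RNA carried Cy3 and was hybridised with a reference in Cy5, by the labels a pool of RNA from 11 mouse cell lines on each array, with no exchange of dyes. The cells are 1 line, each condition is 1 culture, and the differences given have no replicate check. Gene symbols came from supplementary tables held in part, which name 5619 of the 25030 probes, or 22.4%. Of the named genes, 1035 lie on mouse chromosome 1 and 416 have a name starting with A, as each table is held in part.

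GSK3 is a serine/threonine kinase that works in the complex of Axin and Apc, where it marks beta-catenin for destruction. When the kinase is blocked, beta-catenin accumulates and acts in the nucleus with TCF/LEF factors on Wnt target genes. In mouse ES cells, inhibition of GSK3 is known to favour self-renewal. Indirubins are also known as ligands of the aryl hydrocarbon receptor, Ahr, which controls enzymes of foreign-compound metabolism.

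Each value below is a log2 ratio of Cy3 to Cy5 on an array, and a log2 fold change is that ratio on the BIO array minus that on the DMSO array. With BIO, 113 measured genes were at least 2-fold higher, which is 0.686% of 16469, and 122 were at least 2-fold lower, which is 0.741%. With the processed signals of the scanner software these counts were 390 and 376, so neither their size nor the more frequent direction held across settings. Of the 113 and 122 genes, 10 were at least 4-fold higher and 8 at least 4-fold lower. At 1.5-fold, 495 genes were higher (3.01%) and 582 lower (3.53%). The median log2 fold change of the measured genes was -0.0033, the robust SD among them was 0.24, and 5% lay below -0.51 and 5% above 0.47. A symbol was held for 21 of the genes changed 2-fold, 15 of them higher and 6 lower. These are 0.350% and 0.140% of the 4283 measured genes with a symbol, so the named genes hold fewer changes than the array as a whole. Changes were fewest among dim genes, with 4 higher and 8 lower in the dimmest of 4 groups of equal size by Cy3 signal, against 63 and 38, 33 and 52, and 13 and 24 in groups of rising signal. The robust SD was 0.17 in the dimmest group and 0.28, 0.29 and 0.26 in the others. By construction, the offset added in background correction makes changes of dim genes smaller.

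**Figure D1:**
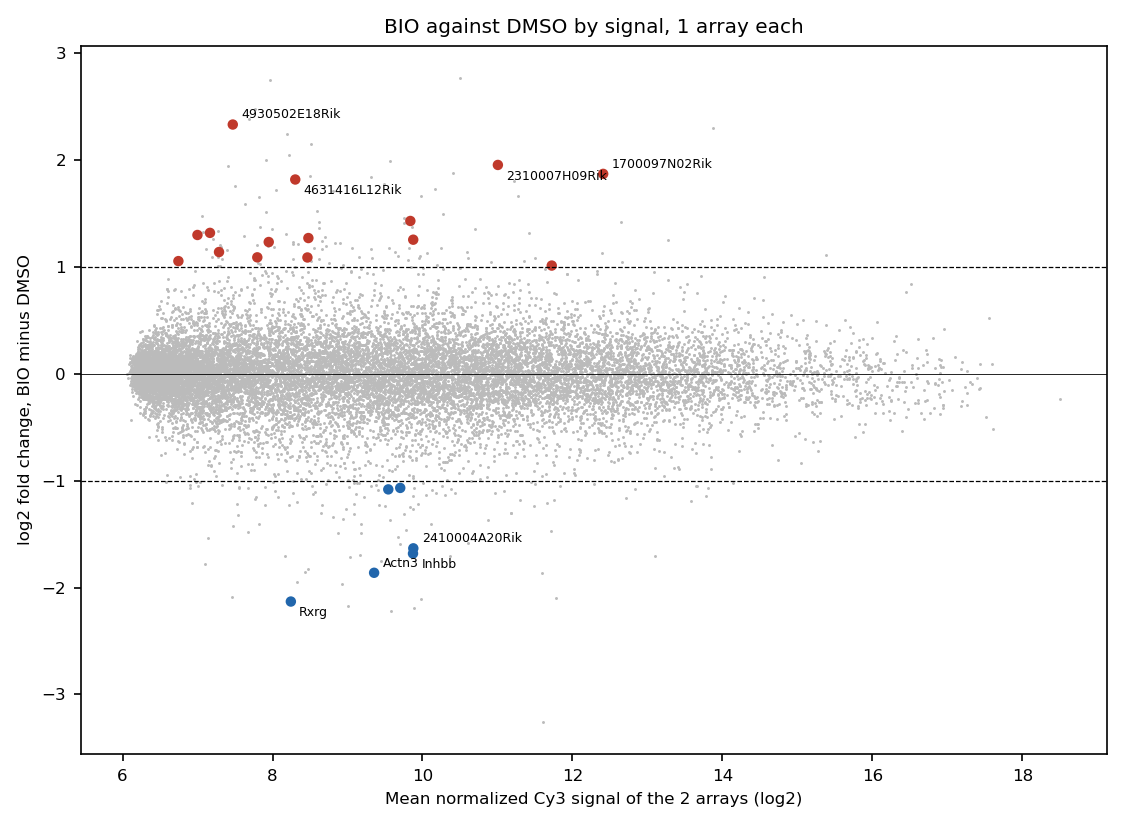
Log2 fold change of BIO against DMSO (y axis) by mean normalized Cy3 signal on a log2 scale (x axis) for the measured genes, 1 array per condition. Grey points are genes, coloured points are the 15 genes with a symbol at least 2-fold higher (red) and the 6 at least 2-fold lower (blue), dashed lines mark 2-fold, and the names shown lie between -2.13 for Rxrg and 2.33 for 4930502E18Rik.

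The genes lowered by BIO included a nuclear receptor, a ligand subunit and a protein of the muscle contractile apparatus. Rxrg, retinoid X receptor gamma, partners other nuclear receptors on DNA. Its log2 ratio to the reference was 3.34 with DMSO and 1.21 with BIO, and its processed Cy3 signal was 1502 and 300.7. Inhbb encodes the beta B subunit that forms activin B, a ligand of the TGF-beta family. Its log2 ratio was 2.68 with DMSO and 1.00 with BIO, a log2 fold change of -1.68, with Cy3 at 4464 and 1257. Actn3, the alpha-actinin of fast muscle fibres, had a log2 ratio of 0.36 with DMSO and -1.50 with BIO, a difference of -1.86. In the groups by signal to which Rxrg, Inhbb and Actn3 belong, differences between BIO and DMSO had a robust SD of 0.31, 0.29 and 0.29. Each of these genes was thus lower by more than 5 such SDs. They were picked for a change of at least 2-fold, which favours a large multiple. That SD is a spread among genes and not an error between replicates.

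Khdc3, listed under its clone name 2410004A20Rik, encodes a KH-domain protein of the maternal complex of oocytes that is also made in ES cells. Its log2 ratio was 4.09 with DMSO and 2.46 with BIO, a log2 fold change of -1.63. The Cy5 signal of this spot was lower too, at 69.6 against 147.7, and Cy3 alone gave -2.19. Niban, now Niban1, a protein induced under cell stress, had log2 ratios of -0.05 and -1.12. Its log2 fold change of -1.07 became -0.996 with median centring, just under 2-fold. The remaining gene, 6330407J23Rik or Soga3, had log2 ratios of 3.11 and 2.03. Khdc3, Rxrg, Soga3 and Inhbb were all several-fold above the reference pool in DMSO, and with BIO they were still above it, by a log2 ratio of 0.997 for Inhbb and more for the others. Actn3 and Niban1 were near the reference in DMSO and below it with BIO.

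Among the genes raised by BIO, 1700097N02Rik, 2310007H09Rik and Aff1 were well measured, with a Cy3 signal of at least 2598 units on both arrays. The clone 2310007H09Rik is now named Lhpp, a phosphatase that acts on phosphorylated histidine and lysine. Its log2 ratio was -0.69 with DMSO and 1.26 with BIO, and its Cy3 signal was 2598 and 10932. No function is assigned to 1700097N02Rik, for which Cy3 was 7278 with DMSO and 28094 with BIO and the log2 ratio 0.81 and 2.68. Aff1, a scaffold of the super elongation complex of RNA polymerase II, stood just past the threshold with log2 ratios of -1.49 and -0.48. These genes gave log2 fold changes in Cy3 alone of 1.87, 1.94 and 1.15, close to those of the ratio, 1.87, 1.95 and 1.01.

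Other raised genes included a receptor, a motor protein and a synaptic protein. Arhgef26 (4631416L12Rik) had log2 ratios of 1.18 with DMSO and 3.00 with BIO. Cxcr7, now Ackr3, a scavenging receptor of the chemokine Cxcl12, was far below the reference on both arrays, at -3.95 and -2.69. Dnahc7a, now Dnah7a, a heavy chain of the dynein that moves cilia, went from 0.49 to 1.81, with Cy5 not well above background in DMSO. Insyn1 (6030419C18Rik), known from inhibitory synapses, had -0.47 and 0.76. Their log2 fold changes were 1.82, 1.25, 1.32 and 1.23.

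Enzymes and transporters made up a further part. Aox3, an aldehyde oxidase that oxidises aldehydes and nitrogen heterocycles, had log2 ratios of -0.32 with DMSO and 0.98 with BIO, and Cy3 of 47.9 and 380.1. Its log2 fold change was 1.30 by the main values and 2.99 in the processed signals, so its size is not settled. The related Aox1 and Aox4, encoded near it, had log2 fold changes of -0.22 and -0.24. Slc18b1 (1110021L09Rik), a vesicular carrier of polyamines, had -0.86 and 0.23, and Prxl2a (5730469M10Rik), a peroxiredoxin-like protein, had -0.86 and 0.22. Tmem242 (5730437N04Rik), which helps to assemble mitochondrial ATP synthase, had 0.20 and 1.63.

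The largest log2 fold change with a symbol, 2.33, was that of 4930502E18Rik, now Ct55, a gene known from male germ cells and tumours. It was dim with DMSO, at a Cy3 signal of 61.7, and reached 871.1 with BIO. Processed signals gave a log2 fold change of 4.06 and Cy3 alone one of 1.92, so its size depends on how the dim DMSO value is treated. The pseudogene Smkr-ps (1700023L04Rik) was of the same kind, with Cy3 of 46.3 and 278.3 and log2 ratios of 0.01 and 1.07. The clones 1810059H22Rik and 6330403L08Rik, which have no assigned function, had log2 fold changes of 1.14 and 1.27. In the processed signals these were 2.15 and 1.66.

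Of the 21 genes, 20 also differed at least 2-fold in Cy3 alone and 20 in the processed signals, in the same direction, and 19 in both. The exceptions were Smkr-ps, at 0.93 in Cy3 alone, and Aff1, at 0.9986 in the processed signals. Cy5 was well above background on both arrays for 20 of them. Over all 235 changed genes, the counts were 203 for Cy3 alone, 207 for the processed signals and 209 for Cy5. The error that the scanner software gives for a log ratio, combined for both arrays, was 0.32 on the log2 scale for Lhpp, 0.33 for Actn3, 0.43 for Inhbb, 0.48 for Ct55, 0.68 for Khdc3 and 0.71 for Rxrg. A further measure of precision is a probe printed 5 times and well above background at every spot, whose log2 fold change had a mean of -0.055 and an SD over spots of 0.14. That SD covers error within an array alone.

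**Figure D2:**
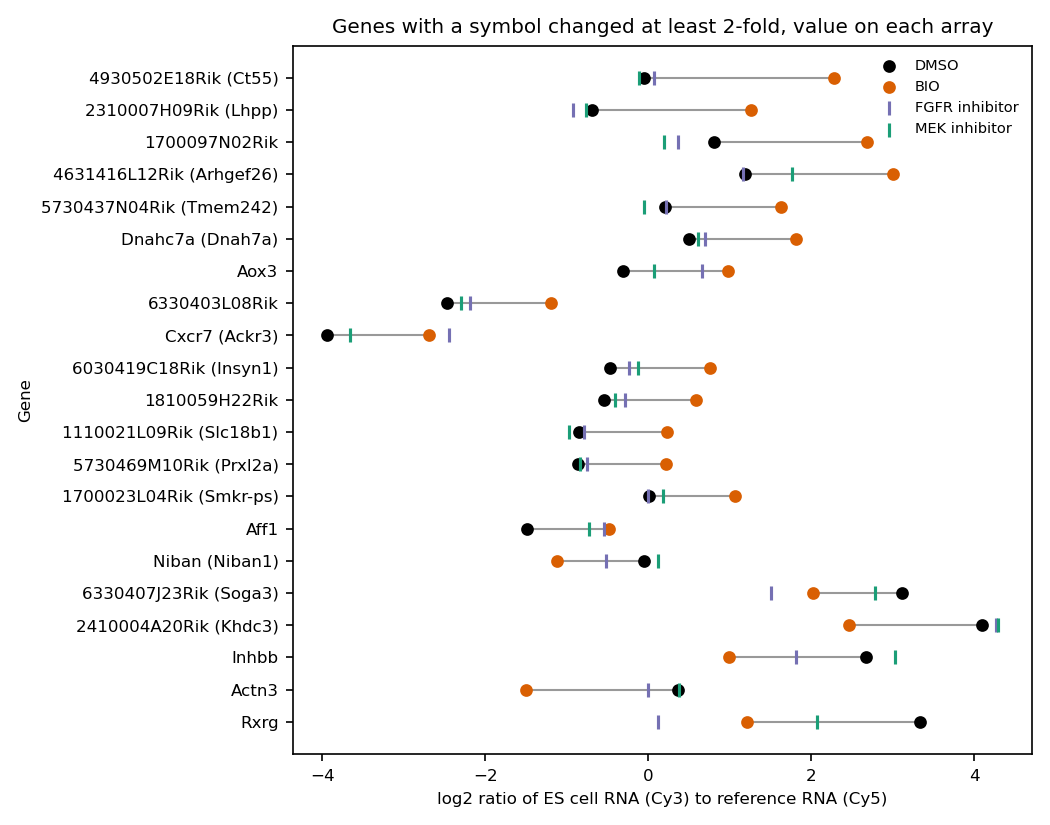
Log2 ratio of ES cell RNA to reference RNA (x axis) for the 21 genes with a symbol changed at least 2-fold (y axis), 1 array per condition. Lines join DMSO (black) to BIO (orange), and ticks give the arrays with FGFR and MEK inhibitors. The BIO value lies outside the range of the remaining 3 arrays for 18 genes, the exceptions being Rxrg, Soga3 and Cxcr7.

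The other inhibitor arrays share the DMSO array as control, so their log2 fold changes are not independent of those with BIO and are given side by side. For Lhpp they were -0.23 with FGFR inhibitor and -0.08 with MEK inhibitor, for Khdc3 0.18 and 0.21, and for Arhgef26 -0.02 and 0.58. Inhbb had -0.86 and 0.35. Cxcr7 had 1.498 and 0.29, and Aff1 0.95 and 0.76. On its own array, BIO gave the highest or lowest of the 4 log2 ratios for 18 of the 21 genes, and for 9 of them it was at least 2-fold beyond the nearest of the other arrays. Over all 235 changed genes these counts were 199 and 69, and all were picked by their distance from DMSO, which favours such extremes by construction. The margin was 2.21 for Ct55, 1.95 for Lhpp, 1.87 for 1700097N02Rik, 1.63 for Khdc3 and 1.49 for Actn3. Rxrg, Soga3 and Cxcr7 lay further from DMSO with FGFR inhibitor than with BIO. Rxrg had -3.22 with FGFR inhibitor and -1.26 with MEK inhibitor, and Soga3 had -1.61 and -0.33. Some genes under 2-fold with BIO are added here, chosen after their values were seen. With FGFR inhibitor Acss1 had 1.54, Abcb4 1.17, Epha4 1.05 and Eya1 1.02, each above its value with BIO. Nrp2 and Phlda3 had -0.24 and -0.28 there.

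A clone name says little of what was measured, and no probe sequence was aligned to a transcript here. The first 30 of 60 bases are given, 5′ to 3′, for the probes of 4 genes listed by clone name, those with the largest changes among clones that now carry a gene symbol.
Z00042066-1 (Ct55): ttttttctagtagaacccatcctcccatgt
Z00010917-1 (Lhpp): acagaaagctccttagagttgggatggaca
Z00034203-1 (Arhgef26): gagatgtcccaggattataaaacaggaaat
Z00051117-1 (Khdc3): gaagaacagagtagagctgtttttgtttcc

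Close to the 2-fold threshold, 2310043M15Rik at 0.9971, 4930504H06Rik or Efcab10 at 0.98, with Cy5 well above background on neither array, Abcg1 at -0.9964 and 2310043J07Rik or Upk3bl at -0.98 lay just outside it. In the processed signals they were at 0.49, 1.19, -1.05 and -2.73, so Efcab10, Abcg1 and Upk3bl passed 2-fold there. In Cy3 alone 2310043M15Rik at 1.18 and Upk3bl at -1.05 passed it. On the inside, Aff1 at 1.01 was the nearest higher gene with a symbol and Niban1 at -1.07 the nearest lower one. Probes without a symbol were chosen after their values were seen, and the largest changes among them were those of Z00005843-1 and Z00075678-1, at -3.26 and -2.22, and Z00024810-1 and Z00074822-1, at 2.77 and 2.75. At the latter spots Cy5 was higher with BIO too, at 362 against 37.9 and at 96.8 against 9.98. Their log2 fold changes were 1.45 and 1.96 in the processed signals and 4.40 and 3.05 in Cy3 alone, so these sizes are not settled. Z00005843-1 was bright, with Cy3 of 21803 with DMSO and 2838 with BIO, and its gene was not identified here.

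At 1.5-fold, 84 genes with a symbol were higher, or 1.96% of 4283, and 75 lower, or 1.75%. Those named in the rest of this paragraph were chosen after their values were seen. Members of the Aff family stood on both sides, with log2 fold changes of 1.01 for Aff1, -0.84 for Aff4, its partner as a scaffold of the super elongation complex, and -0.64 for Aff3. Cops2, a subunit of the COP9 signalosome, had -0.76, and Castor1, an arginine sensor upstream of mTORC1, had -0.82. Among the higher ones, Inpp5d, a phosphatase that removes a phosphate from a signalling lipid of the PI3-kinase pathway, had 0.88, Epha4, an ephrin receptor, 0.82, and Pid1, an adaptor known to dampen insulin signalling, 0.82.

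The lists of pathway genes are described by counts and medians, to be read beside the shares and the median over all measured genes given above. Members beyond the naming rule, given for a range or a role, were chosen after their values were seen. Of 31 genes in a list of the Wnt and GSK3 pathway, 20 had a probe with a symbol, and all 20 were measured. None passed 1.5-fold. The median log2 fold change was 0.11, and it was 0.15 in the processed signals and 0.19 with median centring. In Cy3 alone, without the reference, it was -0.0091, so its sign was not the same in every setting. In the destruction complex, Axin1 had 0.14 and Apc -0.08. Among its regulators, Tnks2, a tankyrase that marks Axin for degradation, had -0.12 and Rnf146, the ubiquitin ligase that follows it, 0.16. The receptors Fzd5 and Fzd7 had -0.06 and -0.31, and the transducer Dvl1 -0.20. The ligands Wnt6 and Wnt10a had 0.08 and -0.02, and the secreted antagonist Dkk2 -0.20.

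Phosphatase PP2A opposes GSK3 and casein kinases on several substrates. Its catalytic subunits Ppp2ca and Ppp2cb had log2 fold changes of -0.07 and 0.14, and its scaffold subunits Ppp2r1a and Ppp2r1b 0.31 and 0.15. The regulatory subunits Ppp2r5d and Ppp2r5e had 0.39 and 0.20. Csnk1g2, a casein kinase, had 0.33. Among nuclear members, Aes, now Tle5, a short Groucho-family corepressor, had the highest value of the list, 0.46, followed by Tbl1x, a cofactor of beta-catenin, with 0.19, and Cby1, which binds beta-catenin and blocks its activity, with 0.06. The robust SD at the signal of Aes was 0.28, and values of this list ran from -0.31 to 0.46.

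Of 16 genes in a list of Wnt targets, En1 alone had a probe with a symbol. En1, a homeobox factor of midbrain and limb, had log2 ratios of -3.32 with DMSO and -2.61 with BIO, a log2 fold change of 0.71, or 1.15 in the processed signals. Its log2 fold change with the FGFR and MEK inhibitors, against the same DMSO array, was -0.13 and -0.12. Cy3 was dim, at 172.3 and 360.4, and the remaining 15 targets were not analysed here.

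In the Ahr pathway, Ahr itself had a log2 fold change of -0.01, its cochaperone Ptges3 had 0.08, and the conjugating enzyme Ugt1a6a -0.21. Ahrr, the repressor that Ahr induces, had 0.52, with log2 ratios of -0.80 and -0.28 and Cy3 of 73.5 and 178.6. In the processed signals Ahrr reached 1.25. Enzymes of foreign-compound metabolism numbered 21 with a probe, of which 13 were measured, 1 was 2-fold higher (Aox3) and none lower, with a median of 0.0068. Akr7a5, an aldehyde reductase, had 0.60, and all 8 members not measured were below the flag on both arrays.

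The ES cell label was checked with 15 pluripotency genes, of which 4 had a probe with a symbol. All 4 were above the reference pool on both arrays. Gbx2 had log2 ratios of 4.01 with DMSO and 3.79 with BIO, Tcfcp2l1 had 2.97 and 3.38, Prdm14 2.20 and 2.04, and Nr5a2 1.92 and 2.67. The paper that reported these arrays gives Gbx2 as upregulated by every inhibitor. This probe differed, with log2 fold changes of -0.22 with BIO, -0.98 with FGFR inhibitor and -0.22 with MEK inhibitor. Why it differed was not tested. For Rxrg the paper reports downregulation by every inhibitor, and here Rxrg was lower with each. Its log2 fold changes were -2.13 with BIO, -3.22 with FGFR inhibitor and -1.26 with MEK inhibitor. Genes that the paper gives as specific to the GSK inhibitor were not compared here. Nr5a2, a nuclear receptor that drives transcription in the naive state, had a log2 fold change of 0.75 by ratio and 0.64 in Cy3 alone. Its Cy5 was not well above background on either array and the software's error was 1.05, so its ratios are imprecise. Tcfcp2l1, a transcription factor of that state, had 0.41 by ratio and 1.098 in Cy3 alone, and Cy5 of its spot was 3035 with DMSO and 5293 with BIO. Prdm14 had -0.16 by ratio, within the robust SD of 0.29. The remaining 11 genes of this list were not analysed here.

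Markers of other cell types were looked up as well. Of 13 blood markers, 7 were measured and none passed 1.5-fold, while the defining gene Ptprc was below the flag on both arrays. Fcgr3, an Fc receptor, was highest at 0.51 and reached 1.36 in the processed signals, with Cy3 of 68.2 and 171.5, and Zap70, a T cell kinase, was lowest at -0.33. Of 11 mesenchyme markers, 8 were measured, with a median of 0.11, 3 of them below 0 and none past 1.5-fold. The highest were Fn1 at 0.36 and Col6a3 at 0.33, the latter at 0.083 in Cy3 alone, and the lowest was Acan at -0.16. Of 10 muscle markers, 6 were measured, and the summed Cy3 signal of all 10 was 4552 with DMSO and 1961 with BIO. Actn3 made up 3361 and 704.1 of these sums, and 2 of the 8 above background with DMSO, Myog and Cacna1s, were lost below it, beside 4.97% over all genes, with log2 fold changes by ratio of 0.17 and -0.21. Des, an intermediate filament of muscle, had -0.34, Tnnt2 -0.10 and Tnni1 -0.0036, while Actn2, the list's only measured member above 0, had 0.23. Of 12 neural markers, 6 were measured, with Pou3f3 lowest at -0.75 and Kif1a highest at 0.29. Of 9 endoderm and epithelial markers, 6 were measured, with Lct, intestinal lactase, at 0.78 (1.72 in the processed signals), Elf3 at 0.57 and Sox17, a defining factor of endoderm, at -0.37. The part that cells of these types had in the values above was not tested, and in a bulk culture fewer cells of a type and less RNA per cell cannot be told apart.

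Among signalling lists, activin, Nodal and BMP genes had 15 of the 16 members with a probe measured, with Inhbb 2-fold lower and no other past 1.5-fold by the main values, while Cfc1, a Nodal coreceptor, had -0.12 and reached -1.40 in the processed signals. The receptors Acvr1 and Acvr2b had 0.37 and -0.28, the Nodal cofactor Foxh1 -0.10, the latent TGF-beta binding protein Ltbp3 -0.39, and Inha, the alpha subunit that turns Inhbb into an inhibin, -0.18. Of 8 nuclear receptors, cofactors and retinoid enzymes, Rxrg was 2-fold lower and Nr5a2 1.5-fold higher, and the remaining 6 lay between -0.10 and 0.26. Among 37 growth factor, cytokine and guidance genes, 18 were measured. Cxcr7 was 2-fold higher and Nrp2, a coreceptor of semaphorins and VEGF, had 0.88 with the ratio going from -2.34 to -1.46, while Sema4c had -0.58. Of 50 genes of receptor, cyclic AMP and RGS signalling, 27 were measured and none passed 2-fold by the main values. Htr5b, a serotonin receptor, had 0.77 and Adora2b, an adenosine receptor, -0.73. Cy5 of Htr5b was not well above background on either array. In the processed signals these were 2.34 and -1.27, and Adra2a at 1.13 and Adrb1 at -2.67 passed 2-fold as well.

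Developmental factors had 19 of 29 members measured and none past 2-fold by the main values, while in the processed signals members such as Eya1 at 1.13, En1 at 1.15, Pou3f3 at -1.88 and Ihh at -2.56 passed it. Eya1, a transcriptional coactivator and phosphatase, had 0.75, and its log2 ratio was -2.10 with DMSO and -1.34 with BIO. Pou3f3, a POU factor of the nervous system, had -0.75 by ratio and -0.59 in Cy3 alone, with Cy5 not well above background on either array. In the list of p53 and heat shock genes, all 23 members were measured. Phlda3, a p53 target that restrains Akt, had the highest value, 0.81, with Cy3 of 19880 and 39001, and Ier5, an immediate early gene, had 0.49. Other p53 targets lay on both sides of 0, with 0.20 for Ppm1d, 0.21 for Btg2 and -0.24 for Bax, and Hspd1, a mitochondrial chaperone, had -0.40.

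Of the lists of cell structure and transport, Actn3 alone passed 2-fold by the main values, and in the processed signals Abcg1 at -1.05 and Abcb1a at 1.42 did so too. In the actin and muscle list, 37 of 42 were measured, Actn3 was 2-fold lower, and the others ran from -0.60 for Actr3b to 0.64 for Add1, an adducin that caps actin filaments. Cytoplasmic actins Actb and Actg1 had -0.13 and -0.05. Matrix genes and their proteases had 34 of 53 measured and none past 2-fold, with Lamc1, the gamma chain of basement membrane laminins, at -0.77 and Adam32 at 0.72. ABC transporters had 28 of 30 measured. Abcg1, which exports cholesterol to lipoproteins, had the lowest value with log2 ratios of -1.09 and -2.08, and Abcb4, which exports phosphatidylcholine into bile, the highest, 0.81. Solute carriers had 26 of 36 measured and a range from -0.45 for Slc40a1, the iron exporter ferroportin, to 0.73 for Slc15a4, a peptide and histidine carrier of lysosomes. Septins and MARCH ligases had 16 of 22 measured, between -0.31 for Sept7 and 0.53 for Sept8, with Sept9 at 0.46.

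Of lists of core metabolism and housekeeping, none held a change of 2-fold. Acyl-CoA enzymes had 37 of 41 measured, with Acot1, a cytosolic thioesterase that frees fatty acids from CoA, at -0.91, its neighbour Acot2 at -0.57, and Acss1, a mitochondrial acetyl-CoA synthetase, at 0.72. All 54 respiratory chain genes were measured, with a median of 0.016, Ndufab1 highest at 0.62 and Uqcrfs1 lowest at -0.52. All 28 ribosomal protein genes were measured, with a median of -0.13 beside -0.0033 over all measured genes. Of the 28, 22 were below 0, and the share of all measured genes below 0 was not counted. The robust SD was 0.25 at the signal of Rpl22l1 and 0.22 at that of Rpl41, larger in size than the list median. This list median stayed below 0 in Cy3 alone (-0.096), in the processed signals (-0.11) and with median centring (-0.037). Over all measured genes the medians of these settings were 0.011, 0.015 and 0.049. Rpl22l1, a paralogue of Rpl22, was the lowest at -0.60, followed by Rpl41 at -0.47, and Rpl31 the highest at 0.33. The 27 proteasome subunits had a median of -0.048, which became 0.00008 in Cy3 alone, and were lowest for Psmc6 and Psma3, at -0.55 and -0.54.

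Cell cycle genes passed no threshold in either direction. All 46 mitosis genes were measured, between -0.48 for the kinesin Kif15 and 0.44 for the condensin subunit Ncaph2, with a median of -0.049 that became 0.050 with median centring. Median centring also moved the median of all measured genes, from -0.0033 to 0.049, so this turn of sign is not particular to the list. The kinases Plk1 and Aurkb had -0.04 and -0.06, and cyclin Ccna2 had 0.05. All 29 replication genes were measured, with a median of 0.019, Mcm8, a helicase of recombination, lowest at -0.57 and Orc3l at -0.30.

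**Figure D3:**
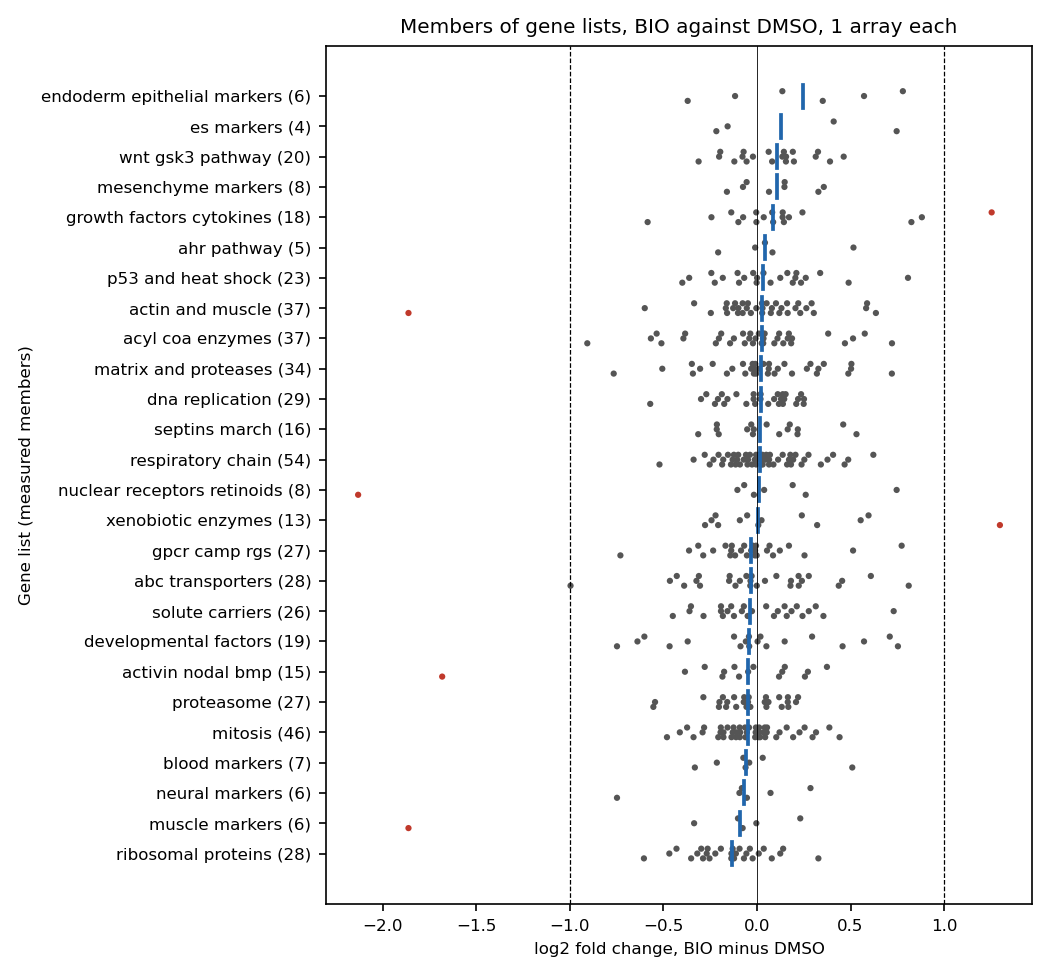
Log2 fold change of BIO against DMSO (x axis) for measured members of 26 gene lists (y axis, number measured in parentheses), 1 array per condition. Points are genes, red where the change was at least 2-fold, blue bars are list medians, and dashed lines mark 2-fold. List medians run from -0.13 for ribosomal proteins to 0.24 for endoderm and epithelial markers, and the red points are Rxrg, Actn3 (in 2 lists), Inhbb, Cxcr7 and Aox3.

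Fewer genes were well above background with BIO, 16923 against 17331 with DMSO. Of the latter, 862 (4.97%) were lost below it, and of the 7699 genes not above it with DMSO, 454 (5.90%) were gained. For such genes a bound was taken in Cy3 after loess and Aquantile. It sets the bright array's value against the higher of 2 values on the dim array. These are the probe's own value and the lowest value among probes well above background there. The values called Cy3 alone elsewhere were quantile-normalized instead. This bound is not divided by the reference, so it does not limit the change of the ratio. Most bounds were small. Among lost genes 744 had a bound over 1-fold, with a median of 1.09-fold and 1 gene at 2-fold or more. Among gained genes 442 had one, with a median of 1.11-fold and 2 genes at 2-fold or more, the largest at 7.17-fold without a symbol. The ratio changed by less than the bound for 437 of these 744 and 251 of these 442 genes, and in the other direction for 127 and 47. A symbol was held for 161 lost and 90 gained genes.

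Lost genes with known roles were dim with DMSO, and their log2 fold changes by ratio are given beside the bounds in Cy3. Rgs20, a brake on G proteins, had a bound of 1.27-fold and a ratio change of -0.34, with processed Cy3 of 50.6 and 20.7. Agtr1a, the angiotensin II receptor, had 1.27-fold and -0.26, with Cy3 of 68.2 and 30.5. In the processed signals the ratio changed by -1.21 for Rgs20 and -1.05 for Agtr1a. Crebrf (A930001N09Rik), a regulator of Creb3, had 1.26-fold and -0.42, Kbtbd13 (5430433E21Rik), a muscle kelch protein, 1.28-fold and -0.37, and the long noncoding RNA Dubr (5330426P16Rik) 1.24-fold and -0.34. The largest bound with a symbol was that of 4930528J11Rik, which has no assigned function, at 1.71-fold with a ratio change of -0.65 (-3.61 in the processed signals). The rest of the 10 largest with a symbol were Efcab3 (4921510J17Rik), 2810404M03Rik, 2810016G10Rik and 1700034J05Rik. At these 4 spots Cy5 was at least 2-fold lower with BIO as well, and the ratio changed by -0.07, -0.19, -0.21 and -0.08, so no fold is given for them.

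Over all genes above background with DMSO, 4.97% were lost, and beside that share stand the counts of lists. Of the receptor and cyclic AMP genes, 7 of the 34 above background with DMSO were lost, Rgs20 and Agtr1a with Adora2a, Adcyap1r1, Gpr25, Gpr37l1 and Gpr39. Their bounds in Cy3 ran from 1.27-fold for Rgs20 to 1.002-fold for Gpr25, and were under 1-fold for Gpr37l1 and Gpr39. These 7 genes were dim with DMSO, with processed Cy3 between 29.6 and 68.2. No share among genes of like signal was taken for this or the other lists. In the growth factor list, 4 of 22 were lost, beside the same 4.97%, Erbb4, a neuregulin receptor, Nppc, the C-type natriuretic peptide, the chemokine Ccl20 and Tnfrsf11a. Ratio changes were -0.25 for Erbb4 and -0.32 for Nppc, but 0.17 for Tnfrsf11a and 0.07 for Gpr39, so the loss of the flag is not a fall of the ratio in each case. In the processed signals these were -2.25, -1.44, 1.11 and -0.67, so the sizes are not settled and Gpr39 turned its direction. Other lost list members were Sept4, Sept6 and Sept12, Abca12, Slc23a3, Adamts17, Cntn2 and the homeobox factor Lmx1a, with ratio changes between -0.23 for Sept6 and 0.09 for Lmx1a.

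Among gained genes with a symbol, the largest bound was that of 2510009E07Rik, at 2.20-fold in Cy3, with a log2 fold change of 0.97 by ratio, and processed Cy3 of 6.53 with DMSO and 241.4 with BIO. Cy3 alone gave a log2 fold change of 1.02 and the processed signals 4.80, so its size is not settled. It has no assigned function, and its log2 fold change was 0.13 with FGFR inhibitor and 0.012 with MEK inhibitor. The other 9 of the 10 largest bounds with a symbol were those of Il18r1, a receptor of interleukin 18, Erich6 (4932431H17Rik) and the clones 1700058G18Rik, 1700054K19Rik, 2210406O10Rik, 4930406D18Rik, 4930548G14Rik, 4930448I18Rik and 1700016D18Rik. At 8 of these 9 spots Cy5 was at least 2-fold higher with BIO as well, for Il18r1 at 85.9 against 31.4, and by ratio the log2 fold changes were 0.27 or less, with 0.03 for Il18r1. No fold is given for them. Among list members, the thiamine carrier Slc19a3 had a ratio change of 0.43, the adenylyl cyclase Adcy2 0.17, and the transcription factors Lhx4 and Pax3 0.28 and 0.13. In the processed signals these were 1.67, 1.04, 1.60 and 2.74, so their sizes are not settled. Igfbp5, Tnfsf4, Npbwr1, Hmcn1, Adamts19, Slc26a9 and Serpinc1 were gained with ratio changes between -0.05 and 0.13.

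RefSeq promoters of build GRCm38.p6 were matched by gene to 12 of the 15 higher and 5 of the 6 lower genes, some with several starts, and the 250 bases before each start were searched on both strands. The TCF/LEF letters CTTTGAT or CTTTGAA were in 1 of 17 promoters of higher genes (5.88%), in 0 of 6 of lower genes in 7.48% of 32851 promoters in all and in 5.84% of those of measured genes with a symbol. The core GCGTG, which Ahr with its partner can bind, was in 6 of 17 (35.3%), in 1 of 6 (16.7%) and in 28.2% of all, and in 43.8% of the 4022 promoters of measured genes with a symbol. By gene the core was in 5 of 12 higher genes (41.7%), against 47.8% of measured genes with a symbol, since 2 of the 6 promoters are overlapping stretches of Prxl2a. A promoter was counted once if it held any match, and a match describes the letters alone. The promoter of Slc18b1, the one with TCF/LEF letters, and that of Aox3, the oxidase raised by BIO, are shown 5′ to 3′ on the strand of the gene, with motif letters in capitals.
Slc18b1, chr10:23796736-23796985, plus strand: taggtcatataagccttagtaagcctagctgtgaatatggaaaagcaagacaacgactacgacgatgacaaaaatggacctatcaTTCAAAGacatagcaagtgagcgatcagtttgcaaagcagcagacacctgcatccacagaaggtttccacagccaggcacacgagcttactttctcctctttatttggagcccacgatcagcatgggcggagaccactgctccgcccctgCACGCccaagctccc
Aox3, chr1:58112886-58113135, plus strand: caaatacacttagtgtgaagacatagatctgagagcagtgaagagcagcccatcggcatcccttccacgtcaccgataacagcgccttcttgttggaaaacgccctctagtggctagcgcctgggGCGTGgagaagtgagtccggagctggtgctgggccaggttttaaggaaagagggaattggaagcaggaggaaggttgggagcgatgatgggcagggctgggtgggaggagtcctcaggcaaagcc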

How the data were processed

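The authors deposited scanner output of Agilent Feature Extraction 9.5.1.1, with raw spot intensity and local background intensity for Cy3 and Cy5, and processed intensity, background-subtracted and dye-normalized per the file headers. The log10 ratio of the software, its error and flags are there too. In addition the authors deposited log10 values for 25030 genes, and from the values these equal log10 of processed Cy3 over Cy5, raised by the probe's average log10 Cy5. Per the labels, sample RNA was in Cy3 and the reference in Cy5. Groups came from the labels. All 4 arrays lay on 1 slide, each with 43451 spots.

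With limma 3.58.1 in R 4.3.3, normexp with an offset of 50 took background from the mean intensity of every spot. After removal of controls and outlier-flagged spots, loess was run within arrays, and spots of a probe were averaged. Outlier flags left 4 of the 16469 genes without a difference. Genes were counted at 2-fold in Python 3.11.15 with pandas 2.3.3 and numpy 2.4.6, and figures were drawn with matplotlib 3.10.9. Since each condition had 1 array, no test was made and the number of arrays limits the precision. Robust SDs (scaled median absolute deviation) were taken in 20 groups of genes by Cy3 signal and include true changes. Bounds used Cy3 after loess and Aquantile and were set beside the ratio and Cy5 after the data were seen. They come without balanced dyes and are open to dye bias.

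Symbols came from 5 supplementary tables held in part, joined by probe name, and 5145 of 5619 matched a RefSeq gene (GRCm38.p6), through synonyms for older names. Of 2722 RIKEN clone names, 1300 now have another symbol. Named are all genes with a symbol changed 2-fold, the 10 lost and the 10 gained with the largest bounds, all members of the Wnt, Wnt target and pluripotency lists, members of the Ahr list, and from each other list the members changed, lost or gained and the 2 with the largest changes. Other genes are named to give ranges or roles, after their values were seen. The members and the 27 lists were chosen with earlier results of these data known. The normalization was tested on simulated data, for which no result is given here. As alternatives, the offset was 16 or background was not subtracted, and processed signals, the deposited values, median centring, Aquantile and Cy3 alone were used, with other filters and flags, thresholds of 1.5-fold and 4-fold, and all probes.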

Additional observations from a re-analysis of the deposited data

How the results depend on the processing

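No paired analysis was possible because the labels give 1 array per condition. For the same reason no array could be left out, and all arrays lay on 1 slide. The count of genes at least 2-fold higher with BIO was 113 and that of genes at least 2-fold lower 122. These became 390 and 376 with processed signals, and 391 and 377 with the deposited values, which add no offset. Why they differ was not tested. At 1.5-fold there were 495 and 582 and at 4-fold 10 and 8, by construction. The other settings gave between 102 and 159 higher and between 83 and 174 lower, within 1.5 times of the counts reported. With median centring 125 were higher and 83 lower, so that 60.1% of the changed genes were higher, against 48.1%, and the cause was not tested. The median of all measured genes was 0.049 in that setting and -0.0033 in the main one. Aquantile leaves the ratios as they are.

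For genes lost below background, the count of 862 became 1638 over all probes of the array and 8 with a bound of at least 1.5-fold. For genes gained, 454 became 719 over all probes, 773 with the software's flag for a positive and significant signal, and 20 with a bound of at least 1.5-fold. The other flag gave 1117 lost genes. More genes were lost than gained in each of these settings but that of the 1.5-fold bound.

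None of the 21 named genes changed 2-fold turned its direction under the 7 other settings for values. Aquantile, which is among them, could not turn a direction, as it leaves the ratios as they are. The deposited values carry the same log ratios as the processed signals, so they are no separate check. Of the 21 genes, 2 fell under 2-fold with median centring, Smkr-ps at 0.73 and Niban1 at -0.996. In Cy3 alone, the processed signals and the deposited table, 1 each fell under it. Sizes were less stable, as 10 of the 21 moved by more than the robust SD of their signal group with processed signals or the deposited values, 6 with an offset of 16, and 3 each in Cy3 alone and with median centring. Signal over background limits the lost and gained genes, and the held part of the symbol tables limits which genes are named.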
